A study of Oryza sativa with 10 samples.

Results

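The outermost megabase of rice chromosome arms was examined for peaks of G-quadruplex capture, in 19 terminal windows of 1 Mb. The windows were the last 1 Mb of chromosomes 1 to 12 and the first 1 Mb of chromosomes 1, 2, 3, 5, 6, 7 and 8. A peak belonged to a window by its midpoint, so position alone chose the members. They numbered 5862 of 136841 peaks in the 3 distinct lists: 1899 of 49898 for BioCyTASQ in vitro, 2604 of 57500 for BioTASQ in vivo and 1359 of 29443 for a list deposited under the names of both BG4 and BioTASQ in vitro. The adjacent 1 to 5 Mb of the same arms, with 24824 peaks, served for comparison. The length of a chromosome was taken as the largest peak end in any list, so distances from the last base of an arm count from the outermost peak and not from the telomere itself. The first megabases of chromosomes 4, 9, 10, 11 and 12 were not analysed here.

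G-quadruplexes are stacked structures that guanine-rich DNA strands can fold into. Telomeres, the protective caps of chromosomes, consist of short repeats with a run of guanines and are a textbook substrate for such structures. The subtelomeric DNA next to them carries genes, tandem repeats and stray telomere-like repeats, and it is often hard to assemble and to map reads to. BioTASQ and BioCyTASQ are biotin-bearing synthetic G-quartets that bind quadruplexes and are recovered on streptavidin beads. BG4 is a single-chain antibody against the same structures, commonly used with a FLAG tag.

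All 10 libraries came from seedlings of the japonica rice cultivar Nipponbare at an age of 2 weeks, fixed with 1% formaldehyde for 10 min. BioCyTASQ vitro, BioTASQ vitro and BioTASQ vivo had 2 libraries each, and the 4 remaining libraries were a biotin and an input control for the vitro and the vivo set. Each capture was given as 1 list of peaks with no values per replicate, so no error between seedlings can be given, and no list of the controls was used. In its place the spread over 12 chromosomes is given, with the ends of a chromosome pooled. Chromosomes are stretches of the same genome in the same libraries and not replicates. The test was a permutation of signs over these 12 values, exact and two-sided, whose smallest possible p is 0.000488, with Benjamini-Hochberg adjustment within each family and a threshold of 0.05. The lists deposited for BG4 and for BioTASQ in vitro were identical, and their peak names contain the words K_PEG_flag, while the names in the other lists contain the word biotin. That list is called BG4/BioTASQ in vitro below. No source used here gives the genome build of the coordinates, so genes and sequences at the peaks were not analysed here.

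The lists differed in how their peaks were spread near the ends. BG4/BioTASQ in vitro peaks were denser in the terminal megabase than in the adjacent 4 Mb, BioCyTASQ in vitro peaks were sparser there, and BioTASQ in vivo peaks did not pass the test in either direction. The terminal megabase held 71.1 ± 5.19 BG4/BioTASQ in vitro peaks per Mb against 65.4 ± 5.74 beside it (mean ± SD, n = 12 chromosomes). Its log2 density ratio was 0.12 (SD 0.13, 1.09 times the adjacent density), above 0 on 8 chromosomes and below it on 3 (p = 0.0107, exact, adjusted p = 0.0278 over 3 lists). For BioCyTASQ in vitro the densities were 101 ± 19.5 and 115 ± 8.43 peaks per Mb, a log2 ratio of −0.21 (SD 0.25, 0.866 times), lower on 10 of 12 chromosomes (exact p = 0.0186, and 0.0278 adjusted). For BioTASQ in vivo they were 140 ± 14.9 and 148 ± 8.72 (log2 ratio −0.09, SD 0.20, lower on 9 of 12, p = 0.145, exact, adjusted p = 0.145). The BioCyTASQ in vitro call was lost without chromosome 2, 4, 7, 8, 9 or 10 and the BG4/BioTASQ in vitro call without chromosome 2 or 4 (adjusted p = 0.0557 in each case, exact). Both calls were also lost with the last 2 Mb against 2 to 5 Mb (log2 ratio −0.12 and 0.035, adjusted p = 0.179 and 0.567, exact). Without chromosome 12 the in vivo list passed (log2 ratio −0.12, adjusted p = 0.0264, exact). All 19 terminal windows together make up 5.09% of the summed chromosome length and held 3.81% of BioCyTASQ in vitro, 4.53% of BioTASQ in vivo and 4.62% of BG4/BioTASQ in vitro peaks, so none of the lists was denser there than over the whole genome.

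**Figure D1:**
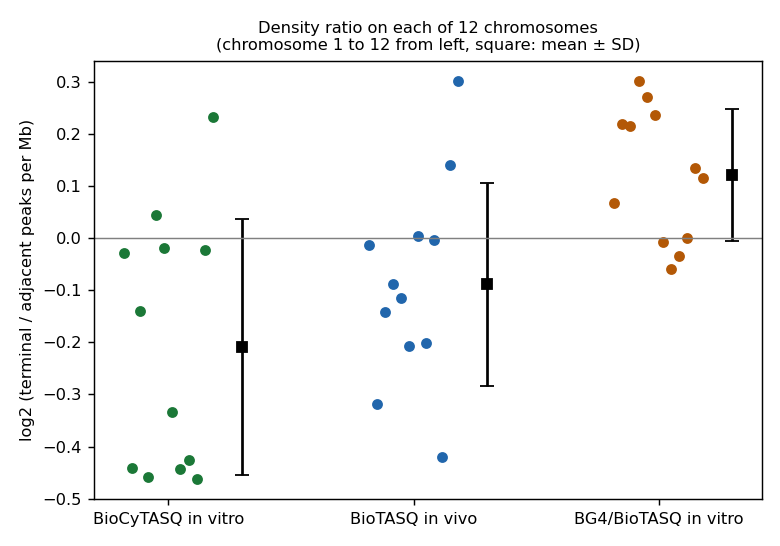
Log2 ratio of peaks per Mb in the terminal megabase over the adjacent 1 to 5 Mb (vertical axis), 1 point per chromosome for each list, with the mean and SD over 12 chromosomes as a square with bars. BioCyTASQ in vitro points lie below 0 on 10 of 12 chromosomes, and BG4/BioTASQ in vitro points lie above 0 on 8.

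The difference between lists was tested directly. The log2 density ratio of BG4/BioTASQ in vitro exceeded that of BioCyTASQ in vitro by 0.33 (SD 0.24, 11 of 12 chromosomes higher; p = 0.00146, exact, and 0.00439 adjusted over 3 pairs of lists). With the last 2 Mb set against 2 to 5 Mb, the difference was 0.158 and the call was lost (adjusted p = 0.0645, exact). It exceeded that of BioTASQ in vivo by 0.21 (SD 0.24, 8 of 12 chromosomes higher; p = 0.0166, exact, and 0.0249 adjusted), but by 0.08 among the stronger 50% of each list by fold enrichment (adjusted p = 0.563, exact) and by 0.085 with the last 2 Mb against 2 to 5 Mb (adjusted p = 0.21, exact). The BG4/BioTASQ in vitro density ratio itself was 0.04 among those stronger peaks (adjusted p = 0.68, exact). BioCyTASQ in vitro and BioTASQ in vivo differed by −0.12 (SD 0.20, adjusted p = 0.0586, exact), which did not pass the threshold but did without chromosome 5 or 6 (adjusted p = 0.0332 and 0.0322, exact).

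The excess of the BG4/BioTASQ in vitro list lay in the outer 0.5 Mb. In 100 kb steps from the end inward, its mean count over 19 ends was 9.63, 9.26, 9.16, 8.0 and 6.95 peaks, and then 5.74, 6.21, 6.16, 5.42 and 5.0 (SD between 2.34 and 4.26). The 5 outer means were thus all above the 5 inner ones. Steps of the adjacent 1 to 5 Mb had means from 5.37 to 7.95. The outer mean of 6.95 lay within that range and the one of 8.0 just above it. The outer 0.5 Mb held 817 peaks and the inner 0.5 Mb 542, a ratio of 1.51, and the outer count was the higher one at 19 of 19 ends. The outer and inner parts were set side by side after the profile had been seen and were not tested. When the terminal window was narrowed to 0.5 Mb, the log2 density ratio against the same adjacent 1 to 5 Mb was 0.36 (SD 0.16, above 0 on 12 of 12; exact p = 0.000488, and 0.00146 adjusted). The difference from BioCyTASQ in vitro then was 0.54 (12 of 12 chromosomes, adjusted p = 0.00146, exact) and that from BioTASQ in vivo 0.38 (11 of 12, adjusted p = 0.00366, exact).

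The other lists differed less between the outer and inner parts. BioTASQ in vivo counted 1370 peaks in the outer and 1234 in the inner 0.5 Mb, 1.11 times as many, with the outer count higher at 12 ends, lower at 6 and equal at 1. For BioCyTASQ in vitro the counts were 981 and 918, a ratio of 1.07, with 11 ends higher and 7 lower outside. The BioCyTASQ in vitro mean for the outermost 100 kb, 12.4 peaks, lay above the median of 7, with a range from 3 to 44. BioTASQ in vivo had 14.4 on average there, a median of 14 and a range from 6 to 29, and BG4/BioTASQ in vitro a median of 9 and a range from 4 to 16.

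**Figure D2:**
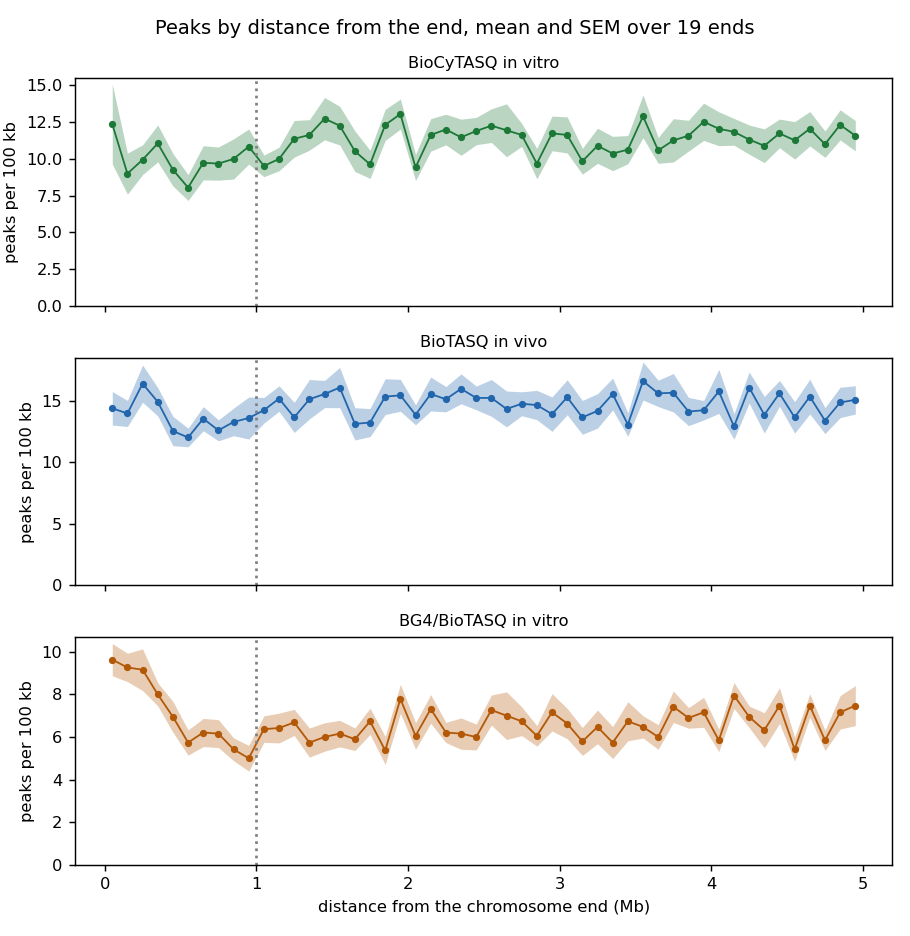
Mean number of peaks per 100 kb (vertical axis) by distance from the chromosome end in Mb (horizontal axis), over 19 ends, with the standard error of the mean over ends as a band and a dotted line at 1 Mb. The BG4/BioTASQ in vitro profile starts at 9.63 peaks and is at 5.0 in the last step before 1 Mb, while the profiles of the other lists show no steady fall.

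The outer excess of BG4/BioTASQ in vitro peaks was found among both weak and strong ones. Of the peaks under the median fold enrichment of the list, 426 lay in the outer and 255 in the inner 0.5 Mb (1.67 times, more outside at 18 ends and fewer at 0). Of those at or over the median, 391 lay in the outer and 287 in the inner part (1.36 times, more outside at 16 ends and fewer at 2). The inner 0.5 Mb had fewer BG4/BioTASQ in vitro peaks per end, 28.5, than an adjacent stretch of the same length, 32.8, and the outer 0.5 Mb had more, 43.0. Of the peaks at or over the median, there were 20.6 in the outer and 15.1 in the inner 0.5 Mb per end.

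End by end, chromosomes 2, 3, 4, 5 and 6 had the terminal megabases in which BG4/BioTASQ in vitro peaks outnumbered each of the 4 adjacent megabases. The first megabase of chromosome 6 had the most, 89 against a mean of 61.0 in the adjacent ones (range 57 to 70). The end of chromosome 2 had 86 against 65.0 (55 to 77), and the end of chromosome 5 had 86 against 64.8 (57 to 76). At the end of chromosome 3 there were 84 against 66.8, and at the end of chromosome 4 there were 69 against 56.0. The lowest count of this list, 57 at the end of chromosome 6, was also the one terminal megabase below all 4 neighbours (61 to 67). Chromosome 6 therefore held both the highest and the lowest BG4/BioTASQ in vitro end. Over all 19 ends the counts ran from 57 to 89 with a median of 70.

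BioCyTASQ in vitro counts varied more between ends, from 61 to 144 with a median of 95. The terminal megabase was below all 4 adjacent ones at 8 ends and above them all at 4. The lowest was the end of chromosome 2 with 61 peaks against a mean of 113 beside it (93 to 132), followed by the end of chromosome 7 with 73 against 118 (110 to 129). The ends of chromosomes 4, 9 and 10 had 78, 88 and 90 peaks against 107, 118 and 124. At the starts of chromosomes 1, 5 and 8 there were 93, 100 and 87 against 114, 117 and 135. The ends above their neighbours were those of chromosome 1 with 110 against 93.3, chromosome 5 with 144 against 120 and chromosome 12 with 138 against 118, and the start of chromosome 6 with 138 against 121.

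BioTASQ in vivo counts ran from 94 to 163 with a median of 135. They were below all 4 neighbours at 5 ends and above them at 2. The end of chromosome 6 was the lowest with 94 against 140 per Mb beside it (115 to 172). Chromosome 2, at its end, had 103 against 162 (135 to 202), and the start of chromosome 8 had 110 against 148. The ends of chromosomes 5 and 10 had 133 and 124 against 160 and 166. The ends of chromosomes 11 and 12 were above all neighbours, both with 163 peaks, against 148 and 132. The start of chromosome 6 also had 163, against 156 (141 to 176).

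**Figure D3:**
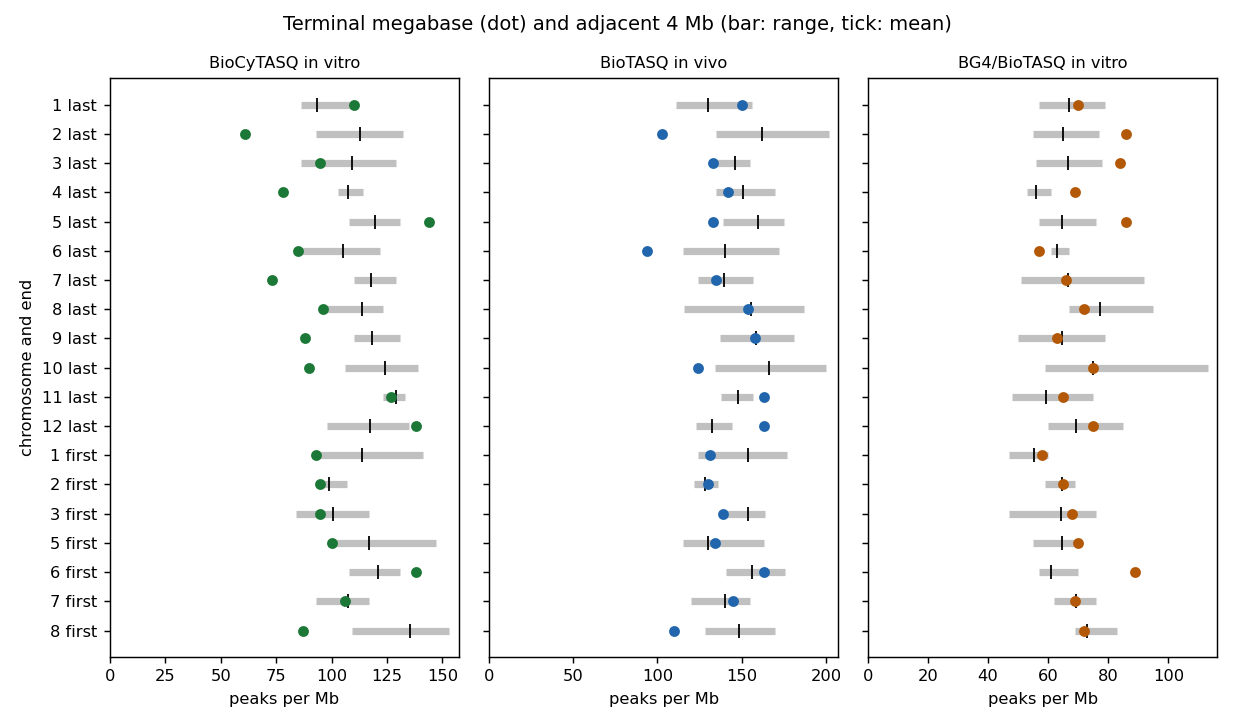
Peaks per Mb (horizontal axis) at each of the 19 ends, named by chromosome and by last or first megabase (vertical axis), with the terminal megabase as a dot, the range of the 4 adjacent megabases as a grey bar and their mean as a tick. The end of chromosome 2 is far to the left of its bar for BioCyTASQ in vitro (61 against 93 to 132) and to the right of it for BG4/BioTASQ in vitro (86 against 55 to 77).

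The same end could be rich in 1 list and poor in another. The last megabase of chromosome 2 was below its neighbours for BioCyTASQ in vitro (log2 ratio −0.89) and BioTASQ in vivo (−0.66) and above them for BG4/BioTASQ in vitro (0.40). The end of chromosome 5 was above for BG4/BioTASQ in vitro (0.41) and BioCyTASQ in vitro (0.27) and below for BioTASQ in vivo (−0.26). The end of chromosome 12 was above in every list (0.23, 0.30 and 0.12 in the order BioCyTASQ in vitro, BioTASQ in vivo and BG4/BioTASQ in vitro). So were the end of chromosome 1 (0.24, 0.20 and 0.063) and the start of chromosome 6 (0.19, 0.061 and 0.545). Across the 19 ends, terminal counts of the in vivo list rose with those of BioCyTASQ in vitro (Spearman rho 0.588, Pearson r 0.601), those of BG4/BioTASQ in vitro followed BioCyTASQ in vitro less closely (rho 0.327, r 0.328), and the in vivo list hardly (rho 0.049, r 0.0775). These are descriptions: ends share libraries and caller settings, and the base composition behind them was not analysed here.

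On the 7 chromosomes with both ends in the set, mean counts at starts and at ends were similar, while single chromosomes could differ. The means were 102 ± 16.9 at starts and 94.9 ± 27.0 at ends for BioCyTASQ in vitro, 136 ± 16.1 and 129 ± 22.5 for BioTASQ in vivo, and 70.1 ± 9.48 and 74.4 ± 11.3 for BG4/BioTASQ in vitro (SD, n = 7 chromosomes). Each of these differences was smaller than the spread between chromosomes.

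Within the terminal megabases, peaks were unevenly spread. Among 190 steps of 100 kb, the 3 lists together had a mean of 30.9 peaks (SD 11.3), and each list had at least 1 peak in every step. The densest step was the first 100 kb of chromosome 6, with 44 BioCyTASQ in vitro, 13 BioTASQ in vivo and 15 BG4/BioTASQ in vitro peaks. Next came the step from 900 to 1000 kb before the end of chromosome 12, with 24, 32 and 8 in the same order, and, with 61 peaks in all each, the first 100 kb of chromosome 3, with 21, 29 and 11, and the step from 200 to 300 kb before the end of chromosome 4, with 21, 33 and 7. The emptiest steps were the one from 900 to 1000 kb at the start of chromosome 2, with 2, 4 and 1 peaks, and those from 400 to 500 kb and from 100 to 200 kb at the start of chromosome 3, with 3, 4 and 3 and with 1, 6 and 5. The step from 700 to 800 kb before the end of chromosome 8 equalled the last of these at 12 peaks in all, with 4, 6 and 2. A dense and an empty step thus lay side by side at the start of chromosome 3. The longest stretches free of any peak were 58556 bp on chromosome 8 (27641327 to 27699882), 53365 bp on chromosome 1 (336200 to 389564) and 52586 bp on chromosome 6 (30762924 to 30815509). Chromosome 9, at its end, had the shortest maximum, 23096 bp.

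A pair of ends stood out in the BioCyTASQ in vitro list. The outermost 100 kb of chromosome 6 at its start and of chromosome 5 at its end held 44 and 41 of its peaks, which covered 26.6% and 30.9% of these stretches. Of those peaks, 10 (22.7%) and 8 (19.5%) lay on a BioTASQ in vivo peak, against 61.3% of all terminal BioCyTASQ in vitro peaks. BioTASQ in vivo itself had 13 and 8 peaks there, covering 5.83% and 4.02%. Of these, 10 (76.9%) and 7 (87.5%) lay on a BioCyTASQ in vitro peak, against 49.1% of terminal in vivo peaks. The same held for 12 (80%) and 8 (88.9%) of 15 and 9 BG4/BioTASQ in vitro peaks, against 25.9% of terminal ones in that list. These shares were not adjusted for the density of the partner list. The control level solved from fold and −log10 p had a median of 16.4 and 14.2 fragments for these BioCyTASQ in vitro peaks, against 11.98 over all its terminal peaks. Some other ends reached medians above both values in this stretch. They were the ends of chromosomes 4, 3, 11 and 8, with 24.4, 19.96, 17.1 and 16.8 (3, 7, 6 and 17 peaks). The part of the control in the clusters was not tested. At the start of chromosome 3, where BioCyTASQ in vitro had 21 peaks over 24.2% of the outermost 100 kb, 16 of them (76.2%) lay on an in vivo peak. The in vivo list had 29 peaks in that stretch.

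**Figure D4:**
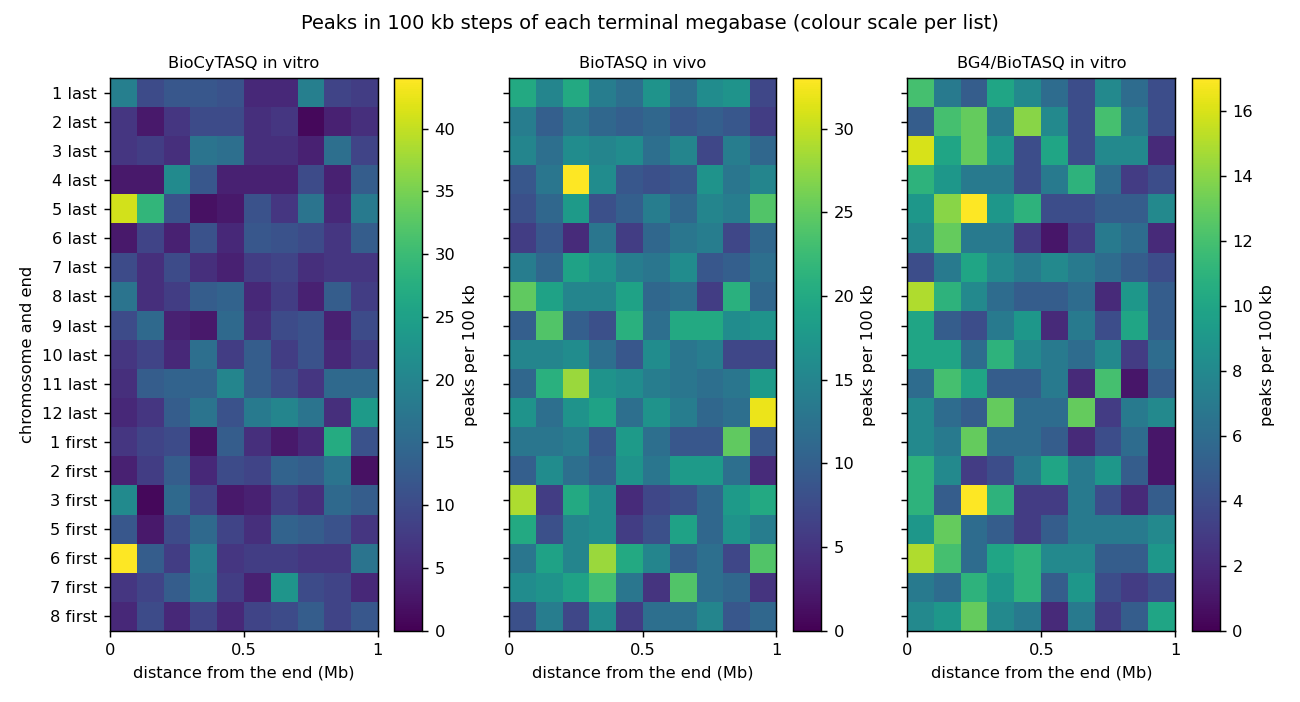
Number of peaks per 100 kb (colour, scaled for each list) by distance from the end in Mb (horizontal axis) at each of the 19 ends (vertical axis). The BioCyTASQ in vitro panel has its brightest cells in the outermost step at the start of chromosome 6 (44 peaks) and the end of chromosome 5 (41), and the BG4/BioTASQ in vitro panel is brighter in its outer 0.5 Mb.

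Over all peaks of the 12 chromosomes, differences in strength and width between terminal peaks and those beside them did not pass the test in any list, while width did among the stronger BioCyTASQ in vitro and in vivo peaks. Fold enrichment is the authors' ratio of a peak to its control and is compared here only within a list. Median fold enrichment in terminal and adjacent windows was 4.19 ± 0.231 and 4.23 ± 0.0987 for BioCyTASQ in vitro (SD over 12 chromosomes of the median per chromosome, adjusted p = 0.591, exact). It was 4.51 ± 0.158 and 4.44 ± 0.0800 for BioTASQ in vivo (adjusted p = 0.376, exact) and 4.76 ± 0.227 and 4.88 ± 0.118 for BG4/BioTASQ in vitro (adjusted p = 0.167, exact). Individual terminal peaks ranged from 1.43 to 17.6, from 1.83 to 10.5 and from 1.57 to 16.0 in the same order of lists. Median width was 416 ± 29.3 bp at the ends and 400 ± 15.6 bp beside them for BioCyTASQ in vitro (adjusted p = 0.146, exact), and 219 ± 10.1 and 226 ± 6.88 bp for BG4/BioTASQ in vitro (adjusted p = 0.125, exact). BioTASQ in vivo peaks measured 351 ± 26.9 and 336 ± 10.0 bp (wider on 9 of 12 chromosomes, p = 0.0459, exact, adjusted p = 0.125). Within the last 0.5 Mb the in vivo difference in width was 0.15 on the log2 scale (SD 0.15, wider on 10 of 12, adjusted p = 0.019, exact). Among the stronger 50% of each list by fold enrichment, terminal peaks were wider by 0.15 for BioCyTASQ in vitro and by 0.098 for BioTASQ in vivo (both on 10 of 12, adjusted p = 0.0117 and 0.0366, exact). With equal numbers of the strongest peaks the values were 0.11 and 0.095 (adjusted p = 0.0425 and 0.0439, exact).

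The share of sequence covered by peaks did not pass the test in any list. Peaks covered 5.97% ± 1.64 of the terminal and 6.19% ± 0.588 of the adjacent windows for BioCyTASQ in vitro (adjusted p = 0.583, exact) and 6.39% ± 0.898 and 6.39% ± 0.372 for BioTASQ in vivo (adjusted p = 0.887, exact). BG4/BioTASQ in vitro peaks covered 1.90% ± 0.191 and 1.76% ± 0.167 (log2 ratio 0.11, SD 0.17, higher on 9 of 12 chromosomes, adjusted p = 0.151, exact). In the last 0.5 Mb that ratio was 0.38 (SD 0.18, higher on 12 of 12, adjusted p = 0.00146, exact).

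The partners of terminal peaks shifted as well. More BioTASQ in vivo peaks overlapped BG4/BioTASQ in vitro ones in the terminal megabase, and fewer lay on a BioCyTASQ in vitro peak. A peak counted as shared from 1 bp of overlap. Of the terminal in vivo peaks, 17.3% ± 2.66 were on BG4/BioTASQ in vitro peaks, against 12.8% ± 1.78 beside them, a rise of 4.51 percentage points (SD 3.49, 11 of 12 chromosomes higher; p = 0.00146, exact, and 0.00879 adjusted over 6 shares). The rise was 1.60 points with the last 2 Mb against 2 to 5 Mb, where the call was lost (adjusted p = 0.0752, exact), and 1.51 points at 50% reciprocal overlap (adjusted p = 0.0161, exact). Over the whole in vivo list the share was 18.1%, so the terminal share was near the genome level and the adjacent share below it. On BioCyTASQ in vitro peaks lay 48.6% ± 7.06 of terminal and 53.7% ± 3.69 of adjacent in vivo peaks, 5.02 points fewer (SD 6.28, lower on 10 of 12, p = 0.0195, exact, adjusted p = 0.0391), beside 55.9% for the whole list. Leaving out chromosome 2, 4, 7, 8, 9, 10 or 11 ended that call (adjusted p up to 0.0781, exact), as did the last 2 Mb against 2 to 5 Mb (−4.01 points, adjusted p = 0.0752, exact) and the adjacent 1 to 3 Mb (−3.43 points, adjusted p = 0.1, exact).

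Compared with the adjacent windows, terminal BG4/BioTASQ in vitro peaks lay more often on in vivo peaks and less often on BioCyTASQ in vitro peaks. Their share on BioTASQ in vivo peaks was 35.3% ± 5.37 in the terminal and 30.1% ± 3.59 in the adjacent windows, 5.17 points more (SD 6.82, 10 of 12 chromosomes higher; p = 0.0269, exact, and 0.0403 adjusted), and 36.6% over the whole list. The terminal share was thus near the genome level and the adjacent share below it. With the last 2 Mb against 2 to 5 Mb the difference was 1.61 points (adjusted p = 0.438, exact). This call was lost when chromosome 1, 2, 3, 4, 7, 8, 9, 10 or 12 was left out (adjusted p up to 0.0806, exact). Their share on BioCyTASQ in vitro peaks was 25.9% ± 7.11 against 31.7% ± 4.98, 5.85 points fewer (SD 5.67, on 11 of 12, p = 0.00635, exact, adjusted p = 0.019), and 42.1% over the whole list. That fall was 0.34 points at 50% reciprocal overlap (adjusted p = 0.662, exact) and 3.57 points with the last 2 Mb against 2 to 5 Mb (adjusted p = 0.0752, exact), and the call was lost in both.

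BioCyTASQ in vitro peaks showed no change that passed the test. On BioTASQ in vivo peaks lay 61.9% ± 5.98 of the terminal and 64.3% ± 2.20 of the adjacent ones (adjusted p = 0.25, exact), with 60.3% for the whole list. On BG4/BioTASQ in vitro peaks the shares were 17.1% ± 2.49 and 16.7% ± 2.05 (adjusted p = 0.521, exact), with 23.2% for the whole list. In the last 0.5 Mb the second share was 2.86 points higher than beside it (SD 3.51, on 10 of 12 chromosomes, adjusted p = 0.0161, exact). A share moves with the density of the partner list, which at the ends was higher for BG4/BioTASQ in vitro and lower for BioCyTASQ in vitro, so these shares are not independent of the densities above.

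**Figure D5:**
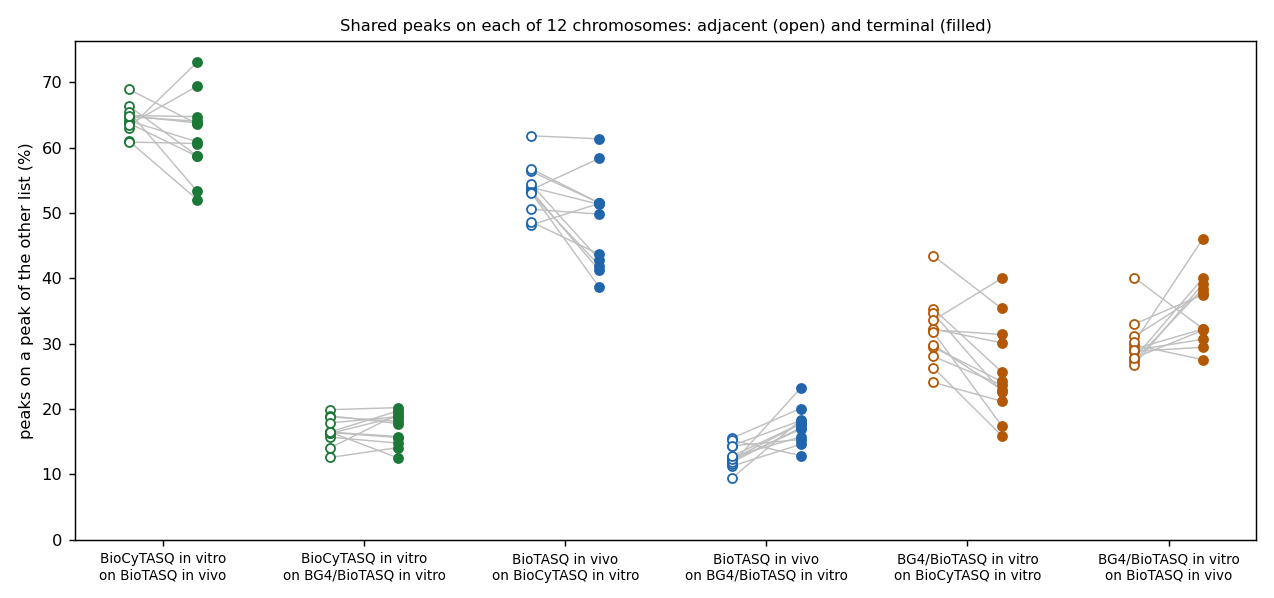
Percent of peaks of the first list that lie on a peak of the second (vertical axis) on each of 12 chromosomes, in the adjacent 1 to 5 Mb (open circles) and the terminal megabase (filled circles), joined by chromosome. BioTASQ in vivo peaks on BG4/BioTASQ in vitro peaks rise on 11 of 12 chromosomes, and BG4/BioTASQ in vitro peaks on BioCyTASQ in vitro peaks fall on 11 of 12.

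When overlapping peaks of all lists were merged, the terminal windows held 3932 regions and the adjacent ones 16556. Regions with BioTASQ in vivo and BG4/BioTASQ in vitro peaks but no BioCyTASQ in vitro peak numbered 232, or 12.2 per Mb, against 6.84 per Mb beside them, 1.78 times as many. They made up 5.90% of terminal, 3.14% of adjacent and 3.61% of all regions in the genome. Their density was higher in the terminal megabase on 10 of 12 chromosomes and at 16 of 19 ends, with a range from 4 to 19 per end. Regions with only an in vivo and a BioCyTASQ in vitro peak went the other way, 47.2 against 57.9 per Mb (0.815 times, lower on 11 of 12 chromosomes). Regions of all 3 lists occurred at 12.6 and 13.8 per Mb (240 in the terminal windows), and regions of BG4/BioTASQ in vitro alone at 38.8 and 37.0. Over the whole genome these last 3 kinds had 57.9, 21.4 and 35.7 per Mb in the order named. Regions of all 3 lists were thus below the genome level in both windows. They made up 6.10% of terminal, 6.34% of adjacent and 9.07% of all regions. These kinds of region were compared after their counts had been seen and were not tested.

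The regions of in vivo and BG4/BioTASQ in vitro capture without BioCyTASQ in vitro were concentrated toward the end. In vivo peaks of this kind numbered 160 in the outer and 74 in the inner 0.5 Mb, a ratio of 2.16, with the outer count higher at 17 ends and lower at 1. Per 0.5 Mb there were 8.42 in the outer part, 3.89 in the inner part and 3.52 in the adjacent windows. The counts of BG4/BioTASQ in vitro peaks on neither other list were 423 outside and 315 inside (1.34 times, higher outside at 17 of 19 ends). In vivo peaks on BioCyTASQ in vitro alone numbered 521 and 538. A high ratio of outer to inner counts was not particular to the in vivo partner. BG4/BioTASQ in vitro peaks on BioCyTASQ in vitro alone numbered 100 and 52 (1.92 times), and those on in vivo alone 178 and 91 (1.96 times). Per 0.5 Mb the first kind had 5.26 outside, 2.74 inside and 4.46 in the adjacent windows. The second had 9.37, 4.79 and 4.03.

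The strongest terminal peaks of each list were named by fold enrichment, at most 1 per end. The leading BioCyTASQ in vitro peak, on chromosome 1 (42994835 to 42996867) and 273 kb from the end, reached 17.6. Chromosome 3 (829002 to 830999) and chromosome 6 (337404 to 341076) followed at 16.9 and 16.7. All 3 lay on a BioTASQ in vivo peak and on no BG4/BioTASQ in vitro peak. BioTASQ in vivo led with 10.5 on chromosome 2 (610899 to 611508), then 10.3 both on chromosome 11 (28565939 to 28566540) and on chromosome 4 (35499451 to 35501119). The peaks on chromosomes 2 and 11 lay on BioCyTASQ in vitro peaks, and the one on chromosome 4, only 2.40 kb from the outermost peak end, overlapped BG4/BioTASQ in vitro capture. The strongest of BG4/BioTASQ in vitro, on chromosome 11 (28870090 to 28870577), had 16.0. Chromosome 9 (22285183 to 22286119) followed with 14.6 and chromosome 4 (34901506 to 34902183) with 14.4. Those on chromosomes 11 and 9 lay on BioTASQ in vivo peaks and the one on chromosome 4 on neither other list. None of these 9 peaks was in all 3 lists. Among all terminal BioCyTASQ in vitro peaks, 12.6% in the outer and 10.5% in the inner part of the window lay on both other lists. The shares were 8.76% and 8.02% for BioTASQ in vivo, and 14.2% and 15.5% for BG4/BioTASQ in vitro. With 9 peaks, whether the strongest ones are shared less often cannot be told and was not tested.

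The terminal regions of best mean rank in all 3 lists lay on chromosomes 1, 8, 7, 5 and 11. On chromosome 1, 820637 to 824087 held 1 BioCyTASQ in vitro peak with a fold enrichment of 11.2, 3 BioTASQ in vivo peaks of up to 6.09 and 1 BG4/BioTASQ in vitro peak with 8.14. On chromosome 8, 27756317 to 27757143, the values were 6.52, 6.60 and 9.54 in the same order, and on chromosome 7, 207460 to 209481, they were 7.75, 5.82 and 9.77. The remaining 2 were at chromosome 5, 612496 to 613534, with 5.41, 6.99 and 8.0, and at chromosome 11, 28308623 to 28309552, with 7.07, 5.74 and 7.26. All of them lay between 208 and 822 kb from the end. With 5 regions, at most 1 per end, whether shared regions avoid the tips cannot be told and was not tested. The region on chromosome 11 is followed by a stretch of 40416 bp without any peak.

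The broadest terminal peaks were those of BioCyTASQ in vitro. Their widths were 4872 bp (chromosome 5, 29840625 to 29845496), 4661 bp (chromosome 3, 49913 to 54573) and 4358 bp (chromosome 5, 239792 to 244149). The first of these, 114 kb from the end of chromosome 5, lay on no peak of another list, while both others lay on a BioTASQ in vivo peak. The broadest in vivo peak, on chromosome 7 (868503 to 871814), measured 3312 bp. Chromosome 1 (941260 to 943879) had one of 2620 bp and chromosome 8 (981226 to 983755) one of 2530 bp, and each lay on a BioCyTASQ in vitro peak. Among BG4/BioTASQ in vitro peaks the broadest had 1253 bp (chromosome 2, 594978 to 596230), 1196 bp (chromosome 7, 29268631 to 29269826) and 1146 bp (chromosome 9, 22939417 to 22940562). The distances of these broad peaks from the tip ran from 52.2 kb on chromosome 3 to 982 kb on chromosome 8. They were not compared with the distances of other peaks.

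The outermost peaks lay close to the ends in every list. The median distance of the outermost midpoint over 19 ends was 3.99 kb for BioCyTASQ in vitro (range 0.166 to 58.8), 2.40 kb for BioTASQ in vivo (0.0895 to 37.3) and 1.19 kb for BG4/BioTASQ in vitro (0.0655 to 57.1). At the ends of chromosomes these distances are bounded by construction, since the outermost peak set the length. At the starts, which are fixed by base 1, the nearest peaks were those of BG4/BioTASQ in vitro at chromosome 2, 62 to 310, chromosome 1, 1004 to 1186, chromosome 3, 1096 to 1247 and chromosome 8, 1034 to 1339. BioCyTASQ in vitro had a peak on those of chromosomes 1 (1023 to 1331) and 8 (1088 to 1303), with fold enrichments of only 1.90 and 1.61. BioTASQ in vivo began at 11426 on chromosome 1, 19567 on chromosome 2, 4718 on chromosome 3 and 10150 on chromosome 8, and it had the outermost peak at the starts of chromosomes 5 (4224 to 4457), 6 (1171 to 1365) and 7 (1183 to 1357).

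At the tips themselves, some BG4/BioTASQ in vitro peaks joined a modest fold enrichment to a very small q. The peak at chromosome 2, 62 to 310, had a fold of 3.42 and a −log10 q of 148, that at chromosome 8, 1034 to 1339, had 4.44 and 199, and that at chromosome 6, 31247555 to 31247721, had 2.66 and 70.4. The median −log10 q of terminal peaks in this list was 9.53. Peaks with a fold under 5 and a −log10 q of at least 50 made up 89 of the 29443 peaks (0.302%), 10 of the 1359 terminal ones (0.736%), 8 of the 4984 adjacent ones (0.161%) and 3 of the 14 within 2 kb of an end. Such peaks were not particular to this list: BioCyTASQ in vitro had 348 (0.697%), with 1.00% of its terminal and 0.497% of its adjacent peaks, and the in vivo list had 15, of which 0 were terminal and 4 adjacent. Within 2 kb of an end they were 1 of 7 peaks in BioCyTASQ in vitro and 0 of 10 in the in vivo list. The cut-offs were set after these peaks had been seen. At the end of chromosome 4, 35502362 to 35502689, high values met: a fold of 10.2 and a −log10 q of 171. This peak and the one named on chromosome 6 set the lengths of their chromosomes, so their nearness to the end was fixed by construction.

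The fragment number at the summit and the level expected from the control were solved from fold enrichment and −log10 p for the BioCyTASQ in vitro and the in vivo list. The median pileup was 64 fragments in terminal and 62 in adjacent BioCyTASQ in vitro peaks (mean log2 ratio over chromosomes 0.061, SD 0.10, higher on 9 and lower on 2), and the median control level 11.98 and 11.6 (mean log2 ratio over chromosomes 0.03, SD 0.11, higher on 7 of 12). For BioTASQ in vivo the pileups were 78 and 76 (0.036, SD 0.065, higher on 7 and lower on 5) and the control levels 16.1 and 15.9 (0.01, SD 0.02, higher on 9 of 12). The highest control level of a terminal BioCyTASQ in vitro peak, 154 fragments, was in the outermost 100 kb at the start of chromosome 8. These levels are known only at peaks, and read coverage between peaks was not tested.

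In the in vivo list, many rows did not hold their own summit. In 25.3% of terminal and 25.6% of adjacent in vivo peaks the summit lay beyond the end of the row, and 15.2% and 15.6% shared the name of a caller peak with another row. In BioCyTASQ in vitro the summit lay outside in 1.53% and 1.77%, and in BG4/BioTASQ in vitro in 0.0%. The shares were thus alike in terminal and adjacent windows. Widths, named peaks and 200 bp summit windows of the in vivo list rest on these rows as deposited. When rows of 1 caller peak were joined, the in vivo difference in width was 0.053 on the log2 scale. It was wider on 8 of 12 chromosomes (SD 0.12, p = 0.175, exact, adjusted p = 0.175).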

How the data were processed

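Capture peaks were analysed from 4 deposited lists of 10 columns without a header, in the order of MACS2 narrow peaks. MACS2 2.1.1, SAMtools 1.5, Picard, BWA and Trim Galore 0.4.4 are listed in the submitters' processing notes, with no roles. Which control served each list, the q cut-off and how replicates were combined are not given in these sources. The deposited fold enrichment is a ratio to the control, and the deposited −log10 q and −log10 p are those of the caller. The deposited score was not used. Read depth per library was not analysed here.

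Identical lists were used once and 26 repeated rows dropped. Peaks were assigned by midpoint, and densities, covered share, median fold, median width and overlap shares were computed per chromosome, ends pooled. Coordinates count from 1. Pileup and control were solved under the Poisson formulas of MACS2 (pseudocount 1, tolerance 0.001 on −log10 p), which gave whole pileups for 99.97% of BioCyTASQ in vitro peaks and 99.998% of in vivo peaks. The window, test and overlap steps were tested on simulated data.

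Regions were named by rule: in each list the 3 strongest and the 3 broadest terminal peaks, at most 1 per end; the 5 best mean ranks in all 3 lists; outermost peaks; the 3 densest and 3 emptiest steps. The windows and tests were chosen with earlier results of these data known. Computation used SciPy 1.17.1, pandas 2.3.3 and NumPy 2.4.6 under Python 3.11.15, with figures from Matplotlib 3.10.9. Alternatives changed the window, the adjacent span, the ends used, the q minimum, the peaks kept, the overlap rule and the chromosomes included.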

Additional observations from a re-analysis of the deposited data

Results flagged for a closer look

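The density ratio of terminal over adjacent windows differed between lists by the test of the difference itself. BG4/BioTASQ in vitro exceeded BioCyTASQ in vitro by 0.33 on the log2 scale (n = 12 chromosomes, higher on 11, adjusted p = 0.00439, exact sign-flip permutation test). With the last 2 Mb against 2 to 5 Mb this difference was 0.158 and the call was lost (adjusted p = 0.0645, exact). It exceeded BioTASQ in vivo by 0.21 (higher on 8 of 12, adjusted p = 0.0249, exact), and by 0.085 with the last 2 Mb against 2 to 5 Mb (adjusted p = 0.21, exact).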

How the results depend on the processing

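Across 12 settings other than the leave-one-out fits, 165 of 222 values kept direction and side of the threshold, 32 lost the call, 8 gained one and 17 changed sign. The cause was not tested. Values are log2 ratios, or percentage points for shares; tests are the exact permutation tests above, and Cy, Vivo and BG stand for BioCyTASQ in vitro, BioTASQ in vivo and BG4/BioTASQ in vitro. No paired analysis was possible because the lists hold no values per replicate, and for the same reason leaving out replicates was not run. Read depth per library was not analysed, so what it limits was not tested.

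In the last 0.5 Mb, covered share turned to 0.048 (Cy) and 0.10 (Vivo) and BG width to 0.0048, while Cy on BG (2.86), Vivo width (0.15) and BG covered share (0.38) gained the call. With the last 2 Mb against 2 to 5 Mb, calls were lost for density in Cy (−0.12) and BG (0.035), for Vivo on Cy (−4.01), Vivo on BG (1.60), BG on Cy (−3.57) and BG on Vivo (1.61), and for BG minus Cy (0.158) and BG minus Vivo (0.085). There, Cy width (−0.020), Cy on BG (−0.122) and Vivo covered share (0.0041) changed sign. Against 1 to 3 Mb, calls were lost for BG density (0.13), Vivo on Cy (−3.43) and BG on Vivo (5.43), and Cy fold turned to 0.0082.

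With chromosome ends only, calls were lost for density in Cy (−0.25) and BG (0.12), Vivo on Cy (−5.52), BG on Cy (−6.63), BG on Vivo (4.48) and BG minus Vivo (0.25), and Cy on BG turned to −0.289. With starts only, on 7 chromosomes, they were lost for density in Cy (−0.16) and BG (0.11), Vivo on Cy (−2.73), BG on Cy (−3.53) and BG minus Vivo (0.20), and fold turned to 0.032 (Cy) and 9.63e-05 (BG).

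With equal numbers of the strongest peaks, width gained a call in Cy (0.11) and Vivo (0.095), Vivo covered share turned to 0.041, and Vivo on Cy (−5.89), BG on Cy (−3.17) and BG minus Vivo (0.15) lost theirs. In the stronger 50%, width gained one in Cy (0.15) and Vivo (0.10), and Vivo on Cy (−5.78), BG density (0.036), BG on Cy (−4.00) and BG minus Vivo (0.075) lost theirs. Signs changed there for fold in Cy (0.021) and BG (0.026), Cy on Vivo (0.284), Cy on BG (−0.593), Vivo covered share (0.034) and BG width (0.020). At 50% reciprocal overlap, BG on Cy (−0.341) and BG on Vivo (1.98) lost the call, and with 200 bp summit windows Vivo on Cy (−3.21) did. When rows of 1 caller peak were joined, an alternative chosen after seeing the data, Cy minus Vivo gained it (−0.12).

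Leaving out 1 chromosome at a time gave density ratios of −0.25 to −0.19 (Cy), −0.12 to −0.059 (Vivo) and 0.10 to 0.14 (BG). Ranges were −0.15 to −0.092 for Cy minus Vivo, −0.059 to 0.023 for Vivo and 0.085 to 0.14 for BG covered share, −0.047 to −0.026 for BG fold, 4.21 to 6.35 points for BG on Vivo and −5.92 to −4.15 for Vivo on Cy. Without chromosome 1, BG fold passed the test (adjusted p = 0.0293, exact), and without chromosome 7 BG covered share did (adjusted p = 0.0469, exact). Calls for BG minus Cy, BG minus Vivo, Vivo on BG and BG on Cy held in each of these 12 fits.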
